A study of Ovis aries with 22 samples.

Results

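Arrays of the sheep heart septum, the wall between the ventricles, were read for a single question: whether a gene's change from late gestation to term went on, stopped or turned round between term and early postnatal life. All 22 arrays of the series entered, which are all 22 of its samples. The animals were 6 fetuses on day 130 of gestation, 8 near-term fetuses that the labels place at about day 145, here called term fetuses, and 8 lambs aged 14 days. No ewe or fetus was treated, the lambs were born naturally, and every animal is given in the labels as Ovis aries with no genotype or strain. Whether some fetuses had the same mother is not given in the labels, so p-values measure the spread between these samples.

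For each probe the change before term was the mean of the term fetuses minus that of the 130-day fetuses. The change across birth was the mean of the lambs minus that of the term fetuses. The difference between them is change across birth minus change before term. It is above 0 where a fall turned, stopped or slowed or a rise began or sped up. It is below 0 where a rise turned, stopped or slowed or a fall began or sped up. Levels and changes are on a log2 scale, where a level is the log2 signal minus the 75th percentile of its array, so 1 unit is a doubling. The term arrays enter both changes with opposite signs, so the changes are not independent of each other.

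Before birth the heart lives on glucose and lactate at low oxygen, and after birth it turns to fatty acids as oxygen and workload rise. Late gestation also brings a rise in fetal cortisol that prepares organs for birth, and cardiac muscle cells leave the cell cycle around this time. Immune genes are carried in the heart mostly by resident macrophages and endothelium, and interferon-induced genes such as CXCL10, ISG15 and MX1 are switched on together. Adenine nucleotide translocases such as SLC25A4 and SLC25A6 exchange ATP for ADP across the inner mitochondrial membrane.

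The reading of each gene rests on 60-base probes, and those of 7 genes that carry the main patterns are shown as the deposited scanner files give them, in lower case with nothing marked. The probes of ISG15, IL18 and CTSS carry the fall before term and rise across birth:
ISG15: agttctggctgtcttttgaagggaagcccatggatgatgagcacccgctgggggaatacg
IL18: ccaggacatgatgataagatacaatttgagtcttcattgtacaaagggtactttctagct
CTSS: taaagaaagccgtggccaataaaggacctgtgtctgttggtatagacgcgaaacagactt
The probes of a pair of related carriers are shown because near-identical genes can share signal on an array:
SLC25A6: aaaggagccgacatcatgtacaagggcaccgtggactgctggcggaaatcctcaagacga
SLC25A4: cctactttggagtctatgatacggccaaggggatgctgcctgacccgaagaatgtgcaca
The probes of AQP8 and KDR carry changes called only across birth, 1 downward and 1 upward:
AQP8: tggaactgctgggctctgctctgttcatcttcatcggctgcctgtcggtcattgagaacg
KDR: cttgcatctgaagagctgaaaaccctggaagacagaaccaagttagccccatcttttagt
The longest run of bases common to the SLC25A6 and SLC25A4 probes was 6. This compares probe with probe, and whether either probe also binds the other gene's transcript was not tested. No genome position is given for the probes, because no sheep genome was used here.

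Every array held 15208 spots, of which 10193 to 13061 were well above background and 0 were saturated. Median correlation of an array with its own group ran from 0.955 to 0.986. MYH7 and MB, the slow myosin heavy chain and myoglobin of heart muscle, were well above background on all 22 arrays. Fetal arrays lay on slides 1 to 4 and lamb arrays on slides 5 to 7, with other scan dates, and no slide or date held both. Birth and batch therefore cannot be told apart, and each change across birth, and each difference built on it, carries that limit. Unscaled spike-in controls, RNA added in known amounts, had a mean log2 signal of 8.30 to 10.055 in lambs, against 6.42 to 7.26 in term fetuses and 6.35 to 6.62 in 130-day fetuses. The part of the slides and of labelling in the changes across birth was not tested.

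Of 12702 probes tested, the difference was called for 3375 (26.6%; limma, 1 fit of all arrays, adjusted p under 0.05), for 1376 (10.8%) above 0 and for 1999 (15.7%) below 0. The change before term was called for 1192 probes (9.38%) and the change across birth for 5380 (42.4%). Most called differences were of genes whose change was called only across birth, 2482 probes (19.5%). Probes that fell before term and rose across birth numbered 308 (2.42%), and those that rose and then fell 162 (1.28%). A change called before term and not across birth was found for 309 (2.43%), and for 112 (0.882%) neither interval was called on its own. A change that kept its direction and gained speed was called for 1 probe, from 0.56 before term to 1.48 across birth, and 1 probe slowed, from 1.47 to 0.49. Neither of these probes carries a gene symbol. The counts of reversals changed when single fetuses were left out. Without 130-day fetus 1 or 3 the change before term was called for 696 and 665 probes, fell-then-rose for 186 and 172, rose-then-fell for 94 and 82, and stopped for 190 and 175. Without 130-day fetus 4 the change before term was called for 756, and rose-then-fell numbered 101, 104 and 105 without 130-day fetus 4, 130-day fetus 5 and term fetus 3. The change before term was called for 819 and 1005 without 130-day fetus 5 and 6, and for 1475 without 130-day fetus 2. Fewer calls before term were thus not particular to 1 or 2 of the 130-day fetuses.

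A gene symbol could be given to 780 of the genes tested, each read on its brightest probe. Of these, the difference was called above 0 for 96 (12.3%) and below 0 for 160 (20.5%). By pattern, 30 fell and then rose, 12 rose and then fell, 179 had the change called only across birth, 27 had it called only before term and 8 had neither called. No gene with a symbol sped up or slowed. With scan date as a random block, the difference was called for 1267 probes, and all of them were among the 3375 with the same sign, while 36 probes then fell and rose. Of 62 called genes described here and followed through the other settings, 39 kept the call of the difference with that block.

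**Figure D1:**
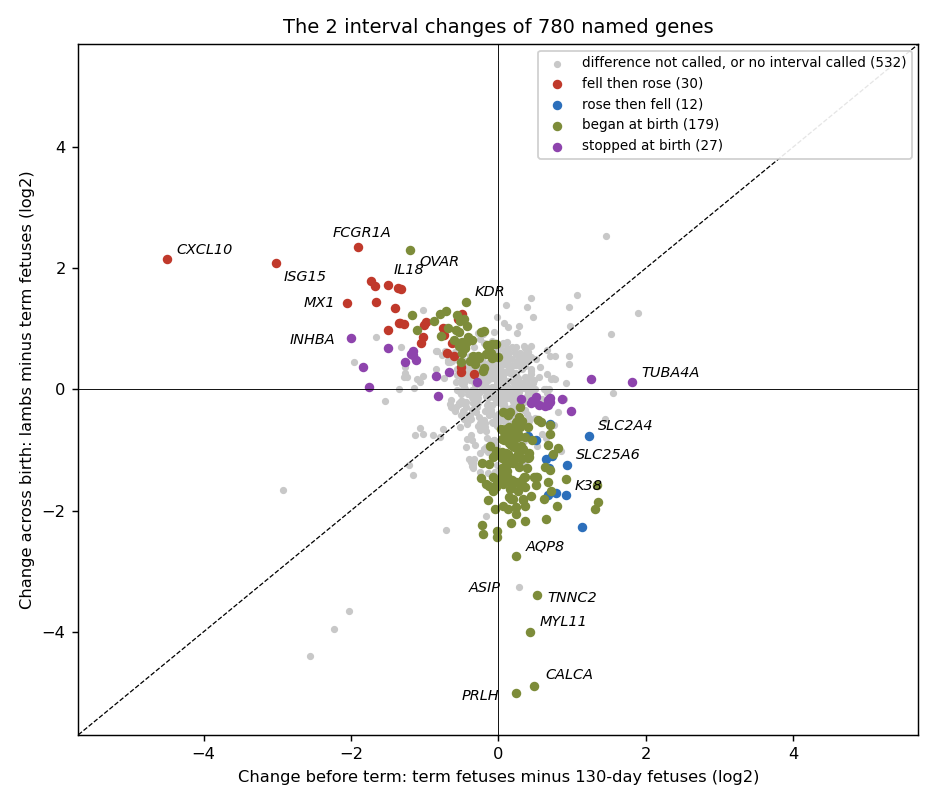
Each point is 1 of 780 named genes, with its change before term on the x axis and its change across birth on the y axis, both in log2 units; colours give the pattern and the dashed line marks equal changes. CXCL10 and ISG15 lie far to the upper left, where a fall was followed by a rise, and PRLH, CALCA and MYL11 lie at the bottom, where the change was called only across birth.

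Genes of the interferon response fell before term and rose across birth, and CXCL10 had the largest difference of all named genes. Of 5 measured, 4 had the difference called above 0 and 0 below, with a median of 3.48, against -0.09 over all named genes. The shares over all 780 named genes were 12.3% above 0 and 20.5% below. CXCL10, a chemokine that draws in T cells, had levels of -2.23 to 3.37 (median -1.42) in the 130-day fetuses, -7.93 to -3.59 (median -4.37) at term and -4.89 to -0.78 (median -2.78) in lambs. Every term fetus lay below every 130-day fetus, while lambs overlapped both groups. CXCL10 was 22.5-fold lower at term and 4.44-fold higher in lambs than at term, with a difference of 6.64 ± 1.38 (SE, limma adjusted p = 0.00152). The rise of CXCL10 was not called without term fetus 2, term fetus 3, lamb 2, lamb 3 or lamb 5, at 1.73 to 2.45 over all arrays left out in turn. It was also not called with normexp, a model-based background correction, with the authors' processed values or with array weights. Nor was it called with slide or scan date as a random block, or with the lambs of slide 6 or 7 alone. Over all other settings the rise was 1.14 to 2.73.

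ISG15, a ubiquitin-like protein that interferon induces, had levels of 1.59 to 5.39 (median 1.93) at 130 days, -3.03 to 1.14 (median -0.15) at term and -1.74 to 3.60 (median 1.96) in lambs. Term fetuses again lay wholly below the 130-day fetuses, and lamb 4 was the only lamb below the term median. The probe printed above gave ISG15 a fall of 8.07-fold, a rise of 4.23-fold and a difference of 5.09 ± 1.26 (limma adjusted p = 0.00515). MX1, an antiviral GTPase, had levels of 0.77 to 3.85 (median 1.16), -2.02 to 1.03 (median -0.33) and -1.28 to 2.55 (median 0.91) in the same order. All 3 groups of MX1 overlapped, and its difference was 3.48 ± 0.93 (limma adjusted p = 0.00861).

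IRF1, a transcription factor of this response, changed by -1.66 and then 1.44, with a difference of 3.09 ± 0.60 (limma adjusted p = 0.000891). MX2, the relative of MX1, had the same signs, -1.32 and 0.69, and its difference of 2.02 was not called (limma adjusted p = 0.0919), except without lamb 7. The mean level of the 5 genes was 2.92 on 130-day fetus 3, -0.61 to 0.84 on the other 130-day fetuses, -3.76 to -1.03 at term and -2.36 to 1.03 in lambs. With 130-day fetus 3 left out, the difference of all 4 called genes was still called and the list's median was 3.02. The falls of ISG15 (-2.46, limma adjusted p = 0.0530) and MX1 (-1.59, adjusted p = 0.0781) were then no longer called. The rise of ISG15 was not called without term fetus 2, nor that of MX1 without term fetus 1 or 2 or lamb 2, 3, 5 or 8. Neither rise was called with slide as a random block or with the lambs of slide 6 or 7 alone. With scan date as a random block the differences of ISG15 (5.04, limma adjusted p = 0.0770) and MX1 (3.46, adjusted p = 0.108) were not called, and those of CXCL10 and IRF1 were.

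**Figure D2:**
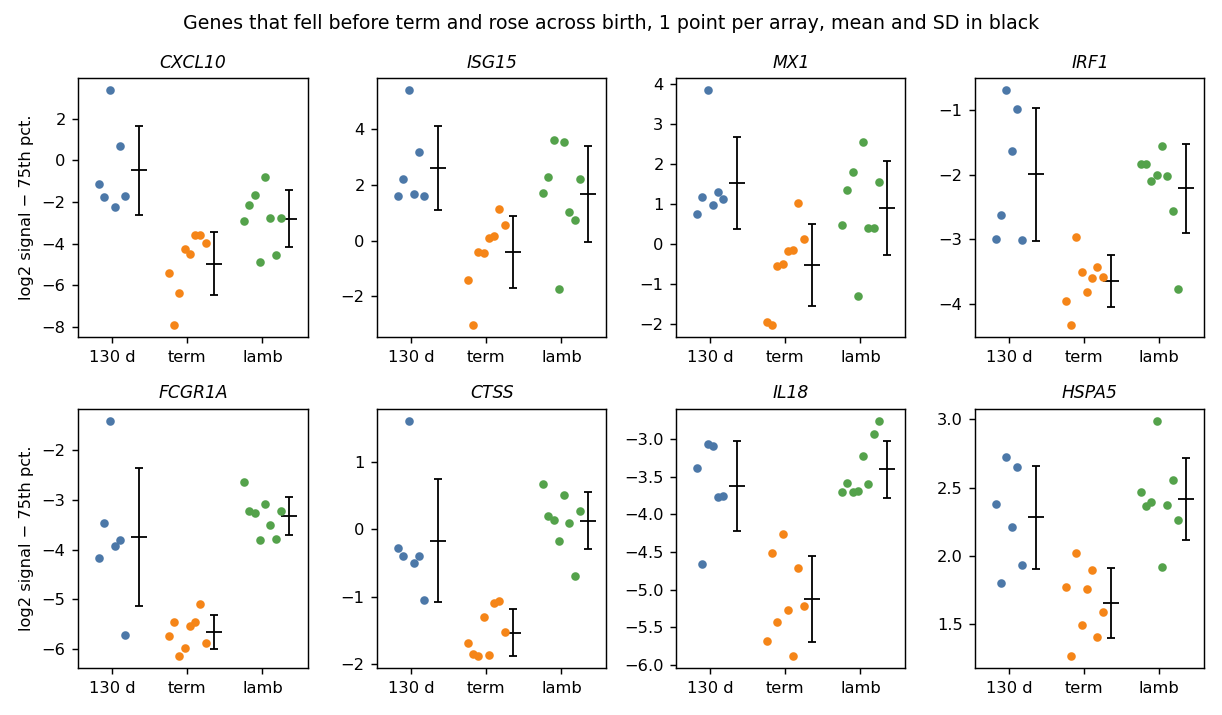
Points are single arrays of the 130-day fetuses, term fetuses and lambs, with log2 level on the y axis and the mean and SD of each group in black. In all 8 genes the term mean is the lowest, and 130-day fetus 3 is the highest array of its group for CXCL10, ISG15, MX1, FCGR1A and CTSS.

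Antigen presentation moved in the same sense, with 3 of 4 measured genes called above 0, 0 below and a median of 2.58. Of all named genes, 12.3% were called above 0 and 20.5% below. MHCII-DRB1, a class II molecule that shows peptides to helper T cells, had levels of -0.48 to 2.46 (median 0.08), -3.63 to -0.40 (median -0.99) and -0.31 to 1.07 (median 0.65). Every lamb lay above every term fetus, and the 130-day fetuses overlapped both. Its difference was 3.51 ± 0.73 (limma adjusted p = 0.00158), and the fall before term was not called without 130-day fetus 3 (-1.32). OVAR, the files' symbol for sheep MHC class I, had levels of 3.43 to 6.33 (median 4.68), 2.07 to 4.35 (median 3.73) and 4.73 to 7.18 (median 5.80). All lambs exceeded all term fetuses. OVAR rose 4.93-fold across birth, its change of -1.20 before term was not called, and its difference was 3.50 ± 0.73 (limma adjusted p = 0.00151). MHC genes form families of near-identical copies that differ between animals, and these probes may not tell the copies apart. PSMB8, a subunit of the immunoproteasome, had a difference of 1.66 and a rise across birth of 0.88.

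Macrophage and monocyte markers followed, with 7 of 12 called above 0 and 1 below, and a median difference of 1.81. The shares over all named genes were 12.3% above 0 and 20.5% below. With scan date as a random block 4 of the 12 were called above 0. Without 130-day fetus 3, 6 of the 11 then tested were called above 0 and 1 below, with a median of 1.69. FCGR1A, the high-affinity IgG receptor, had levels of -5.72 to -1.41 (median -3.87), -6.14 to -5.09 (median -5.64) and -3.81 to -2.64 (median -3.24). No lamb overlapped the term fetuses. It fell 3.76-fold and rose 5.08-fold, with a difference of 4.25 ± 0.65 (limma adjusted p = 0.000100). That fall was not called with normexp. Over the other settings the fall of FCGR1A ran from -2.31 to -0.54 and its difference from 1.72 to 4.65. CTSS, cathepsin S, the protease that trims the class II invariant chain, had levels of -1.05 to 1.61 (median -0.40), -1.89 to -1.06 (median -1.61) and -0.70 to 0.67 (median 0.17). Of the genes described here that fell and then rose, only CTSS had term fetuses apart from both other groups. Its highest term fetus, at -1.06, all but met its lowest 130-day fetus, at -1.05. The difference of CTSS was 3.03 ± 0.49 (limma adjusted p = 0.000160).

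IL18, a cytokine that macrophages release, had levels of -4.66 to -3.06 (median -3.57), -5.88 to -4.26 (median -5.25) and -3.70 to -2.76 (median -3.60). All lambs were above all term fetuses. Its difference was 3.22 ± 0.44 (limma adjusted p = 3.59e-05) and was called in all 40 other settings tried. The fall of IL18 before term, 1.50, was not called with normexp. Over the other settings that fall ran from -1.71 to -0.32 and the difference from 1.30 to 3.52. LYZ, lysozyme, had a difference of 2.75, CD86, a costimulatory molecule of antigen-presenting cells, 2.36, and ITGB2, the common chain of leukocyte integrins, 1.89. CD86 and ITGB2 were lower in every term fetus than in any 130-day fetus. The fall of LYZ was not called without 130-day fetus 3 or 4, at -1.11 for the smaller, nor with normexp or a replicate block. FCER1G, the signalling chain of Fc receptors, fell by 1.16 before term, and its change of 0.57 across birth was not called, except without 130-day fetus 3, term fetus 2 or lamb 7.

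CD80, the partner of CD86, went the other way: its difference of -1.44 ± 0.37 came from a fall of 1.14 across birth. CD14, the monocyte receptor for bacterial lipopolysaccharide, was above background on every array with changes of -0.10 and -0.38, neither called. ITGAM, a defining integrin of myeloid cells, was well above background on 4, 2 and 1 arrays of the 3 groups. The mean level of the 12 markers was -4.07 to -1.94 at 130 days, with 130-day fetus 3 the highest, -4.52 to -3.98 at term and -4.11 to -3.34 in lambs. Of 6 lymphocyte markers and of 5 neutrophil markers 0 had the difference called. In such tissue samples, fewer cells of a type and less RNA per cell cannot be told apart.

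Cytokines did not move as a body, with 4 of 10 called above 0, 3 below and a median of 0.09. Of all named genes, 12.3% were called above 0 and 20.5% below. TNF, a central inflammatory cytokine, fell by 1.50 and rose by 0.98 (difference 2.48 ± 0.52, limma adjusted p = 0.00156). IL1A was well above background on 5 of 6, 0 of 8 and 6 of 8 arrays, so that its fall was at least 1.35-fold and its rise at least 1.39-fold, taking the lowest measurable signal of each array as a bound. The measured means of IL1A were -5.75, -7.43 and -5.72, the term mean being below background, and the difference was called above 0 (limma adjusted p = 0.00257). IL1A entered the test only through the groups where it was high. A lower level at term was thus favoured in advance, and the call of IL1A is no separate support for the pattern. Its fall was not called without 130-day fetus 3 or 5. IL10, a cytokine that damps inflammation, fell by 1.76 before term and changed by 0.04 across birth, so that lambs stayed below all 130-day fetuses. IFNG, interferon gamma itself, ran against the genes it is known to induce. Its levels were -4.79 to -4.31 (median -4.53), -4.10 to -3.53 (median -3.85) and -5.60 to -4.43 (median -5.15), with term fetuses apart from both other groups. The difference of IFNG was -1.99 ± 0.25 (limma adjusted p = 1.60e-05). With normexp IFNG, TNF and IL1A lost the call of the difference, and 1 of the 10 cytokines was called above 0 and 0 below. Under a random block for scan date 3 were called above 0 and 1 below.

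Further genes that fell and then rose were ICAM1, an adhesion molecule of endothelium (difference 2.42), APOA1, the main protein of high-density lipoprotein (2.08), ACVR1, a receptor for bone morphogenetic proteins (1.64), and HSPA5, the chaperone BiP of the endoplasmic reticulum (1.40). ICAM1 and ACVR1 were lower in every term fetus than in any 130-day fetus. HSPA5 had levels of 1.80 to 2.73 (median 2.29), 1.26 to 2.02 (median 1.67) and 1.92 to 2.99 (median 2.38), with all groups overlapping. The falls of APOA1 and ACVR1 were not called without 130-day fetus 1, nor that of HSPA5 without 130-day fetus 3 or 5.

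Over the 30 named genes that fell and then rose, the median change was -1.17 before term and 1.09 across birth. The ranges of lambs and 130-day fetuses overlapped for all 30, and the lamb mean was above the 130-day mean for 14. Among named genes with no called difference and not both changes called, they overlapped for 251 of 272 above 0 and 213 of 245 below. Such overlap is therefore not particular to this pattern. The fall kept its sign within each of slides 1 to 3, which hold both fetal groups, for all 30, and the rise kept its sign in the lambs of each of slides 5 to 7. The same arrays chose these genes, so this agreement was largely fixed in advance and is no separate test. Over all 308 probes of the pattern it held for 303 and 304. CXCL10 changed by -5.22, -5.88 and -3.999 within slides 1, 2 and 3, and the lambs of slides 5, 6 and 7 differed from the term fetuses by 2.73, 2.12 and 1.60.

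The opposite turn, a rise to term and a fall after birth, was called for 12 named genes, with a median change of 0.71 and then -1.20. SLC2A4, the insulin-responsive glucose transporter GLUT4, had levels of 2.90 to 4.12 (median 3.34), 4.14 to 5.00 (median 4.62) and 3.32 to 4.33 (median 3.79). Every term fetus exceeded every 130-day fetus, and lambs overlapped both groups. SLC2A4 rose 2.34-fold, fell 1.70-fold and had a difference of -1.99 ± 0.31 (limma adjusted p = 0.000141). SLC2A1, the insulin-independent transporter GLUT1, changed by -0.19, not called, and then fell by 0.98, with a difference of -0.79 that was not called except without term fetus 2.

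SLC25A6 had levels of 4.30 to 5.06 (median 4.65), 5.36 to 6.09 (median 5.58) and 3.44 to 4.95 (median 4.29). Term fetuses stood above both other groups with no overlap. It rose 1.90-fold and fell 2.37-fold, with a difference of -2.17 ± 0.31 (limma adjusted p = 5.64e-05). SLC25A4, the main form in heart and muscle, had levels of 7.48 to 8.51 (median 7.88), 8.56 to 9.12 (median 8.70) and 8.10 to 9.05 (median 8.70). Term fetuses were above all 130-day fetuses, and lambs overlapped both groups. SLC25A4 rose by 0.86 and its change of -0.15 across birth was not called, with a difference of -1.02 ± 0.27 (limma adjusted p = 0.00925). The contrast between the probes was not itself tested.

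SLC5A8, a sodium-coupled carrier of lactate and short-chain fatty acids, had levels of 1.52 to 2.23 (median 1.91), 2.32 to 3.27 (median 2.54) and 0.16 to 1.41 (median 0.93), with no overlap between any groups. Its difference was -2.41 ± 0.31 (limma adjusted p = 1.76e-05), and its rise of 0.68 was not called without 130-day fetus 1 or 3. K38, named so in the files, rose by 0.92 and fell by 1.75, below the 130-day level (difference -2.66 ± 0.38). LEP, the fat-cell hormone leptin, had a difference of -1.35, with term fetuses apart from both other groups, and it was not called with normexp.

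**Figure D3:**
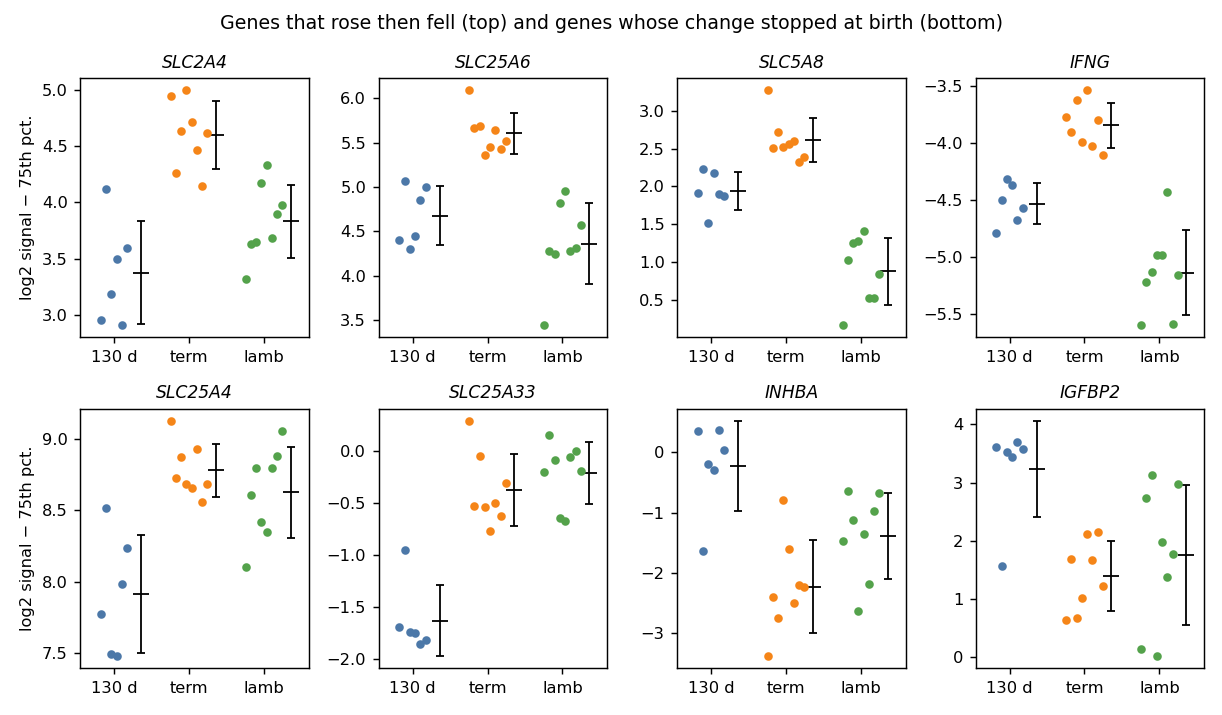
Points are single arrays with log2 level on the y axis and group mean and SD in black, for genes that rose before term and then fell or had no called change, and genes that fell before term with no called change after. SLC25A6 and SLC5A8 peak at term, while SLC25A4 stays near its term level in lambs.

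A rise before term with no called change across birth, together with a called difference, was found for 14 named genes. All had lamb means above the 130-day means, which sorting by a called rise and an uncalled later change largely fixed in advance. SLC25A33, a mitochondrial pyrimidine nucleotide carrier, had levels of -1.86 to -0.95 (median -1.74), -0.77 to 0.29 (median -0.51) and -0.67 to 0.16 (median -0.14). All term fetuses and lambs lay above all 130-day fetuses. It rose 2.39-fold and then changed by 0.17, with a difference of -1.09 ± 0.29 (limma adjusted p = 0.00857). ENO3, the muscle form of enolase, rose by 0.67 and then changed by -0.26, and PYGL, a glycogen phosphorylase, by 0.64 and -0.28, not called except without lamb 5. TPM1, the tropomyosin of heart muscle, rose by 0.67 and then changed by -0.17, with a difference of -0.85 ± 0.20 (limma adjusted p = 0.00368). TUBA4A, an alpha tubulin, showed the largest rise of this set, 3.53-fold, followed by a change of 0.12, with a difference of -1.70 ± 0.50. With scan date as a random block the differences of SLC25A33, SLC25A4, ENO3, PYGL and TUBA4A were not called, and that of TPM1 was.

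A fall before term with no called change across birth, together with a called difference, was found for 13 named genes. INHBA, the beta A chain of activin and inhibin, had levels of -1.64 to 0.37 (median -0.08), -3.38 to -0.79 (median -2.31) and -2.64 to -0.64 (median -1.24). The groups overlapped. INHBA fell 4.00-fold, its change of 0.85 across birth just missed the call (limma adjusted p = 0.0562) and its difference was 2.85 ± 0.62 (limma adjusted p = 0.00217). That change across birth was called without 130-day fetus 2, term fetus 4 or 5, or lamb 4 or 6. IGFBP2, a fetal binding protein of insulin-like growth factors, fell by 1.84 and changed by 0.37. Its difference of 2.21 ± 0.77 (limma adjusted p = 0.0369) was not called without 130-day fetus 1, 3, 4, 5 or 6, term fetus 1, 3, 4 or 8, or lamb 2, at 1.99 to 2.54. CAPN3, a muscle calpain, fell by 1.26, and LMNB1, a lamin of the nuclear envelope that is high in cycling cells, by 1.16. The fall of LMNB1 was not called without 130-day fetus 1 or 3, and its change across birth of 0.63 was called without 130-day fetus 2 or lamb 4.

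Among genes with a called difference, those whose change was called only across birth made up the largest set, with 134 named genes lower and 45 higher in lambs. A change before term that was not called is not shown to be 0. The median change of the 134 was 0.22 before term and -1.29 across birth. Of them, 18 were well above background on fewer than 0.5 of the lambs, and 3 on no lamb.

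Peptide hormone and neural genes stood among the largest falls. PRLH, prolactin-releasing hormone, had levels of 2.34 to 3.31 (median 2.66), 2.34 to 3.36 (median 3.04) and -3.19 to -1.31 (median -2.09). Every lamb lay below every fetus. PRLH fell 32.3-fold across birth, with a difference of -5.25 ± 0.42 (limma adjusted p = 1.87e-07). CALCA, the gene of calcitonin and the vasodilator CGRP, had levels of -0.18 to 1.64, 0.04 to 1.84 and -4.73 to -3.62, on 4, 6 and 8 arrays, since its spots on the other 4 fetal arrays were outliers and were left out. Its difference was -5.38 ± 0.57 (limma adjusted p = 8.31e-06). Lambs lay far below all fetuses measured.

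Of 12 angiotensin, endothelin and other vasoactive genes, 5 had the difference called below 0 and 0 above. Over all 780 named genes, 20.5% were called below 0 and 12.3% above. OXT, oxytocin, fell by 1.92 across birth and EDNRA, the endothelin-1 receptor of vascular muscle, by 0.84. EDNRB, the other endothelin receptor, and AGTR1, the main angiotensin II receptor, had differences of -1.18 and -0.84. AGTR2, the angiotensin receptor typical of fetal tissue, changed by -0.34 and then fell by 1.30, and its difference of -0.96 (limma adjusted p = 0.0844) was called only without 130-day fetus 4 or lamb 4 among the arrays left out. Of 5 adrenergic, cholinergic and neural genes, 4 were called below 0 and 0 above. NPY, the cotransmitter of sympathetic nerves, and its receptor NPY1R fell by 1.56 and 1.94, and CHRM3, a muscarinic receptor, and ADRB3 had differences of -1.50 and -1.23. ADRB1, the main cardiac beta receptor and the list's remaining gene, changed by -0.09 and 0.40, not called except across birth and in the difference without lamb 8. With normexp 0 of the 5 were called, and with scan date as a random block 2. Of 15 pituitary and hypothalamic genes 5 were called below 0 and 0 above, among them LHB, the luteinising hormone beta chain (-2.01), and SSTR1, a somatostatin receptor (-1.79). With normexp 2 of the 15 were called, with a median of -0.05 against -0.89, and 3 of the 12 vasoactive genes were called, with a median of -0.18 against -0.88.

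Markers of skeletal muscle fell steeply, all 3 of 3 called below 0 with a median of -3.91, and 1 of 3 with scan date as a random block. The main fit called 20.5% of all named genes below 0. MYL11, the regulatory light chain of fast skeletal muscle, had levels of 1.61 to 2.88 (median 2.18), 2.17 to 3.15 (median 2.63) and -2.49 to -0.37 (median -1.53). No lamb overlapped a fetus. MYL11 fell 16.0-fold across birth, with a difference of -4.43 ± 0.47 (limma adjusted p = 3.00e-06). TNNC2, fast skeletal troponin C, split the lambs: lambs 1, 4 and 5 had levels of 3.75, 4.03 and 3.61, close to the 130-day median of 3.61, and the other 5 lay between -0.60 and -0.26. Its difference was -3.91 ± 1.22 (limma adjusted p = 0.0211), and -3.73 with scan date as a random block, then not called. Those 3 lambs lay on slides 5 and 6. MYOD1, the master regulator of skeletal muscle, had a difference of -1.19, was well above background on 4 of 8 lambs, and lost the call with normexp.

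**Figure D4:**
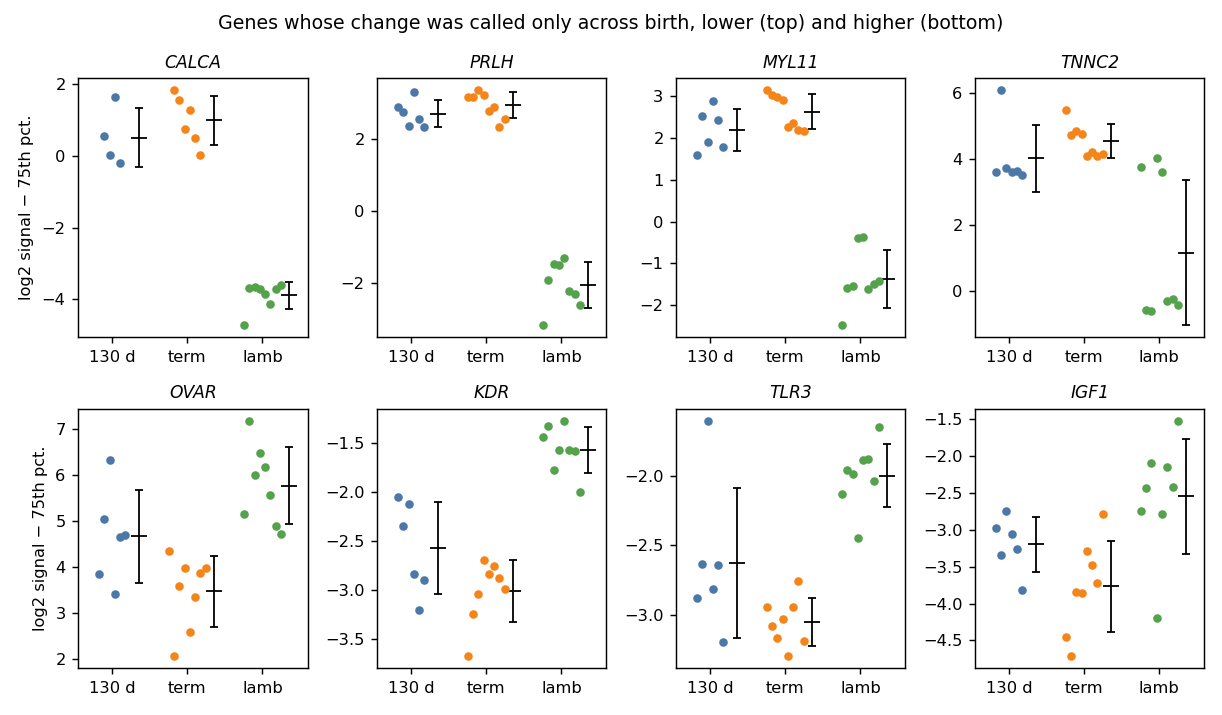
Points are single arrays with log2 level on the y axis and group mean and SD in black, for 4 genes lower and 4 genes higher in lambs with no called change before term. CALCA, PRLH and MYL11 separate lambs from every fetus, and TNNC2 splits the lambs into 3 near the fetal level and 5 far below.

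AQP8, a water channel, had levels of 0.12 to 0.80 (median 0.41), 0.44 to 1.18 (median 0.75) and -3.25 to -1.41 (median -1.96). All lambs were below all fetuses. The AQP8 probe shown above gave a fall of 6.70-fold and a difference of -2.99 ± 0.34 (limma adjusted p = 7.22e-06). ZFP36, a protein that speeds the decay of cytokine mRNAs, fell 4.49-fold (difference -2.52 ± 0.26), again with no overlap, and 1 of its 2 probes was called. Of 7 immediate early genes, which react within minutes to stimuli and to tissue handling, 3 were called below 0 and 0 above: ZFP36, JUN (-1.35) and EGR1 (-1.05), while the median of the 7 differences was 0.37. PLIN1, which coats fat droplets in fat cells, fell by 1.45, and 3 of 7 adipocyte markers were called below 0, as were 20.5% of all named genes. The adult-type slow myosin MYH7 changed by 0.58, not called, and fell by 0.54, with a difference of -1.13 ± 0.38 (limma adjusted p = 0.0333). That call ended without 130-day fetus 1 or 3 or term fetus 2, 3, 5 or 6, at -1.25 to -0.99. The fall across birth was not called without lamb 1, 4 or 5, any term fetus, or any 130-day fetus but 2, at -0.66 to -0.40. MYH7 of lambs 1, 4 and 5 was 0.89, 1.18 and 0.75, against 1.98 to 2.59 in the other 5.

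Among genes that rose only across birth by the calls, KDR, the main VEGF receptor of endothelium, had levels of -3.21 to -2.05 (median -2.60), -3.68 to -2.70 (median -2.94) and -1.998 to -1.27 (median -1.57). Every lamb exceeded every fetus. KDR rose 2.73-fold, with a difference of 1.89 ± 0.30 (limma adjusted p = 0.000151), and 2 of its 4 probes were called with the same sign as all 4. Of 8 endothelial markers 2 were called above 0, KDR and ICAM1, where 12.3% of all named genes were. PECAM1, a general endothelial marker, changed by 0.02 and then rose by 0.68 with an uncalled difference of 0.66. IGF1, the growth factor that mediates growth hormone action, changed by -0.57 and rose by 1.22 (difference 1.79 ± 0.53, limma adjusted p = 0.0166). The IGF1 difference was not called with normexp, with scan date as a random block, or with the lambs of slide 6 alone, where it was 0.84 and the rise was 0.27. GHR, the growth hormone receptor, rose by 0.93 with an uncalled difference of 0.68. IGF2, the fetal growth factor, had changes of -1.07 and -0.63, neither called, and a difference of 0.44 ± 0.61. Both changes of IGF2 were called without term fetus 1, whose level of 3.01 stood below 5.88 or more in the other term fetuses.

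Of 19 matrix genes measured, 4 had the difference called above 0 and 2 below, where 12.3% and 20.5% of all named genes did. COL3A1, fibrillar collagen III, rose by 0.76, TIMP1, an inhibitor of matrix proteases, by 0.81, and the integrin chains ITGAV and ITGB1 by 0.95 and 0.52. COL3A1, TIMP1 and ITGB1 lost the call of the difference with scan date as a random block, which left 1 of the 19 called above 0 and 1 below, and with normexp 1 was called above 0 and 0 below. NTN4, a netrin of basement membranes, and TLR3, a receptor for double-stranded RNA, rose by 1.29 and 1.05, with differences of 2.00 and 1.47. The change of NTN4 before term was called without 130-day fetus 2.

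Both changes were called in the same direction, with no called difference, for 95 of 12702 probes and 7 of 780 named genes. The shared term arrays favour opposite signs, and only 9.38% of probes were called before term. Both hold this count low, so it is not read as a scarcity of steady changes. LPL, the lipase that supplies fatty acids to muscle, had levels of 1.18 to 2.28 (median 1.25), 1.78 to 2.90 (median 2.15) and 2.33 to 3.19 (median 2.77). It rose by 0.77 and by 0.55, and all lambs were above all 130-day fetuses. ALDH1A1, a retinaldehyde dehydrogenase, rose by 1.53 and 0.91. ACSS2, which activates acetate, rose by 0.96 and 1.36. CPT1B, the muscle gate for fatty acids into mitochondria, rose by 0.65 and changed by 0.25, not called. CPT1A, the liver form that fetal heart also carries, changed by 0.44, not called, and rose by 1.50, and its difference of 1.07 ± 0.64 was called only without term fetus 2. Of 9 genes of fatty acid uptake and oxidation, 4 rose before term, 4 rose across birth and 0 fell in either, where 45 (5.77%) and 149 (19.1%) of all 780 named genes rose and 52 (6.67%) and 223 (28.6%) fell in the same intervals. The difference was called for 1, PLIN5, a coat protein of lipid droplets, at -1.34, and for 0 with normexp or with scan date as a random block. HSD11B1, which regenerates active cortisol, rose by 0.95 before term, not called without 130-day fetus 5 or 6 or term fetus 1, and its difference of -0.53 was not called. NR3C1, the cortisol receptor, had a difference of -0.57 ± 0.61, not called. HSD11B2, which inactivates cortisol, had one of -1.94 ± 0.99, not called.

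The cell cycle list had 1 of 13 called above 0, TYMS, thymidylate synthase, which fell by 1.49 before term, and 0 below, and 0 of 13 with scan date as a random block. Of all named genes, the main fit called 12.3% above 0 and 20.5% below. PCNA, the replication clamp, changed by -0.41 and -0.07, and CDK1, the mitotic kinase, by -1.11 and 0.18, none called except for CDK1 without 130-day fetus 2. ASIP, the agouti gene, was 4.82 to 5.67 in all fetuses and 4.06 to 5.20 in 6 lambs, and -4.72 and -5.54 in lambs 3 and 8. Its difference of -3.54 ± 2.26 was not called, and its change across birth of -3.26 lost the call without lamb 3, lamb 8 or any term fetus.

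Of the remaining lists with 5 or more genes, TGF-beta, activin and BMP signalling had 4 of 23 called above 0 and 1 below, insulin-like growth factor, insulin and growth hormone 3 of 13 and 1, other growth factors 3 of 18 and 2, and cytokine and innate receptors 2 of 13 and 1. Heat shock and apoptosis had 2 of 10 above and 1 below, fatty acid and sterol synthesis 2 of 9 and 1, oxidant defence and hypoxia 1 of 10 and 3, and glycolysis and glucose uptake 1 of 15 and 4. Steroid hormone signalling had 0 of 8 above and 1 below, oxidative phosphorylation and the citric acid cycle 0 of 6 and 3, and small molecule transport 0 of 13 and 2. Counts above and below with scan date as a random block were 3 and 0 for TGF-beta, 0 and 0 for insulin-like growth factor, 1 and 1 for other growth factors, 1 and 0 for receptors, 1 and 0 for heat shock and 1 and 0 for lipid synthesis. They were then 0 and 2 for oxidant defence, 0 and 1 for glycolysis, 0 and 0 for steroid signalling and for oxidative phosphorylation, and 0 and 2 for transport. With normexp the counts in the same order were 3 and 0, 1 and 1, 1 and 0, 2 and 0, 1 and 0, 1 and 0, 0 and 2, 0 and 2, 0 and 0, 0 and 3, and 0 and 1. Over all named genes, the main fit called 12.3% above 0 and 20.5% below.

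Of the called differences described above, 62 were followed gene by gene through the other settings, and they were lost unevenly. PSMB8, EDNRB, AGTR1, CHRM3, ADRB3, PLIN5 and TYMS were not among them. By their list counts, PSMB8, CHRM3, ADRB3, PLIN5 and TYMS also lost the call with scan date as a random block, and CHRM3, ADRB3 and PLIN5 with normexp. Whether EDNRB and AGTR1 kept it is not given here. The losses named next are of the 62 alone. A random block for scan date ended 23 calls, those of ISG15, MX1, LYZ, TNNC2, MYH7, JUN, MYOD1, CD80, NTN4, IGF1, COL3A1, TIMP1, ITGB1, IGFBP2, LMNB1, FCER1G, CAPN3, IL10, TUBA4A, SLC25A33, SLC25A4, ENO3 and PYGL. With normexp 17 lost it, namely IL1A, TNF, IFNG, LEP, SSTR1, NPY, NPY1R, MYH7, EGR1, MYOD1, CD80, IGF1, COL3A1, ITGAV, ITGB1, IGFBP2 and IL10. With the lambs of slide 6 alone 11 lost it, namely ISG15, MX1, TNNC2, EDNRA, IGF1, COL3A1, TIMP1, IGFBP2, LMNB1, TUBA4A and PYGL. The change across birth taken by itself was not called with scan date as a random block for CXCL10, ISG15, MX1, IRF1, MHCII-DRB1, FCGR1A, CTSS, OVAR, SLC2A4 and LPL, among others, and was still called for IL18, SLC25A6, SLC5A8, PRLH, MYL11, AQP8 and KDR.

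**Figure D5:**
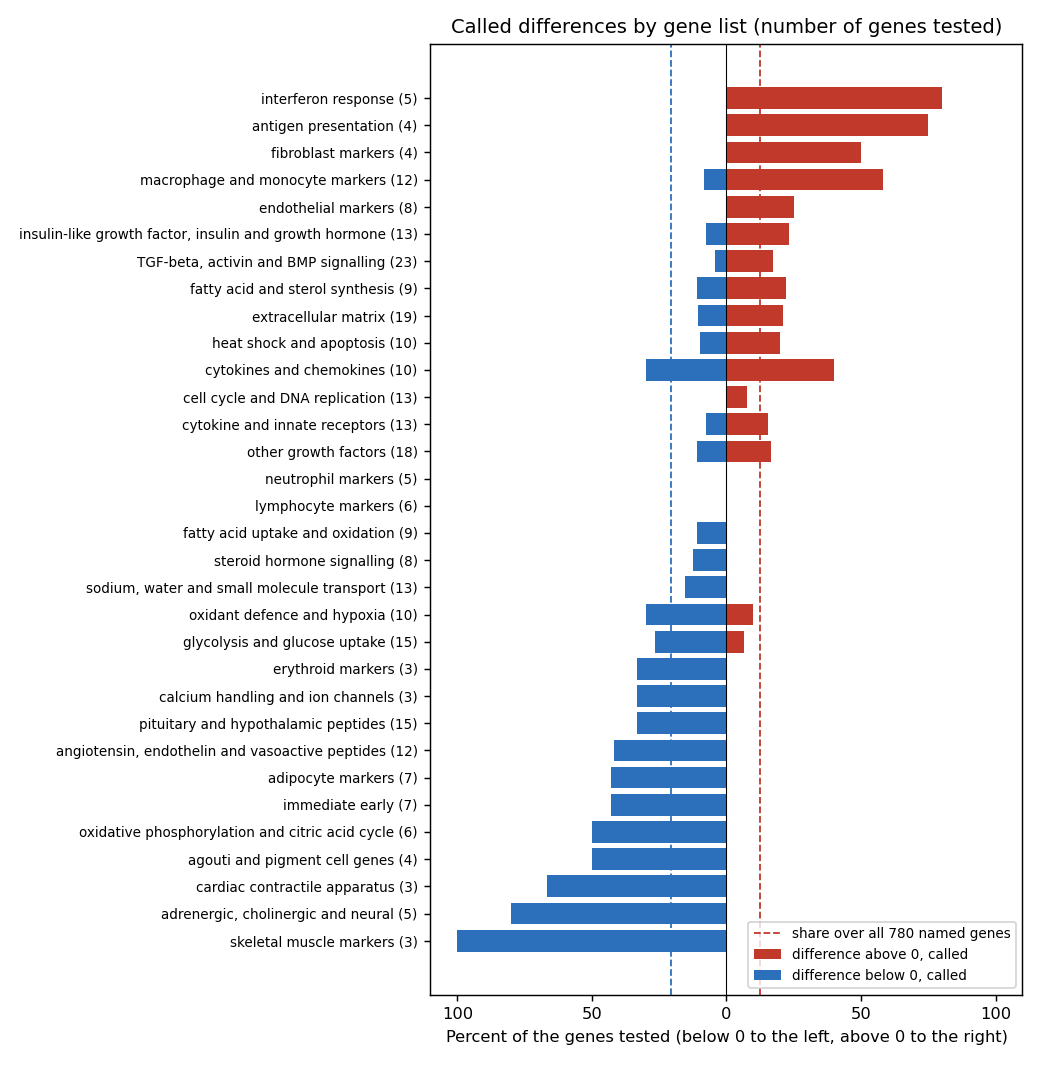
Bars give the percent of each list's tested genes whose difference was called above 0 (right) or below 0 (left), for lists with 3 or more genes, and dashed lines give the shares over all 780 named genes, 12.3% above and 20.5% below. Interferon, antigen presentation and macrophage lists reach furthest right, and skeletal muscle and adrenergic, cholinergic and neural lists furthest left.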

How the data were processed

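Each of 22 heart septum RNA samples was hybridised to 1 single-colour (Cy3) Agilent array. The authors deposited scanner output whose intensity values come, per the file headers, from Agilent Feature Extraction 10.1.1.1, after background subtraction and detrending and with no scaling between arrays. Spot flags (another unit) are also as deposited. A second deposited table, of log2 expression for 10090 probes, served as an alternative. The submitters' processing notes name limma with no version, and the normalization is not given in the sources used here. Its array medians were 8.75 to 8.83, and its deviations between arrays ran at 0.581 to 0.680 of those of the scanner values (correlation 0.866 to 0.928), so its scale is compressed and its background step stays unknown.

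From the intensities, log2 signal minus the array's 75th percentile was computed. Control and outlier-flagged spots were left out, so 77 tested probes lack 1 or more arrays, and spots of a probe were averaged. A probe was tested if, in 1 or more groups, a share of 0.5 or more of the arrays read it well above background. The test was a two-sided moderated test in 1 fit (limma 3.58.1, R 4.3.3, eBayes after lmFit) with Benjamini-Hochberg adjustment over all probes tested. A gene passing only through the group where it is high had to differ, so counts are read beside all probes. Of 15008 probes, 1545 (10.3%) carried 1 symbol, from the files or a RefSeq table used for names alone. A named gene was read on its brightest probe. Of the called genes with 2 or more probes (139), all probes had the same sign in 122, and in 22 of 50 described genes the probes share 40 or more bases and are not independent.

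A called difference was sorted by which interval changes were also called. Genes were named by a rule: the 8 largest differences per pattern and direction, up to 3 measured on no array of a group, called members of functional and marker lists, and a panel of heart genes. A few genes are not reported here and were taken out of the lists. Members and lists were chosen with earlier results of these data known. Precision is limited by the number of arrays. Same-numbered samples did not pair (r -0.162 to 0.111 over 20 pairs, 1 over 0.1). Alternatives were background correction, scaling, the authors' table, filters, probe choice, slide and scan date as blocks, single lamb slides, a replicate block, array weights, a size limit, adjustment over all contrasts and each array left out. Leaving out 130-day fetuses 2 and 3 together was added after seeing the data. The script was tested on simulated data.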

Additional observations from a re-analysis of the deposited data

Results flagged for a closer look

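In 39 of 234 groups of 6 or 8 arrays, over 36 of the genes described, the highest or lowest array stood further from the rest than Dixon's 95% critical value allows, where chance gives about 1 in 20. On 130-day fetus 3 the level stood high for MX1 (3.85), CTSS (1.61), CD86 (-1.39), TLR3 (-1.61), FCER1G (0.35) and MX2 (2.70), against 130-day medians of 1.16, -0.40, -2.95, -2.73, -0.94 and -0.21. All 6 belong to interferon, innate receptor or macrophage genes, and without this array the differences of the 5 that were called stayed called.

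On 130-day fetus 2 the level stood high for TNNC2 (6.08), LPL (2.28) and SLC25A33 (-0.95) and low for INHBA (-1.64), IGFBP2 (1.57) and CDK1 (-4.76). For SLC25A33, LPL, INHBA, IGFBP2 and CDK1 this array lay on the term side of its group, and for TNNC2 it lay beyond the highest term fetus, at 5.48.

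Term fetus 1 stood apart for TNF (-3.82), SLC25A6 (6.09), SLC5A8 (3.27), PLIN1 (-0.50), CD80 (-2.80), TIMP1 (1.44) and IGF2 (3.01), and term fetus 2 for MHCII-DRB1 (-3.63), COL3A1 (-2.59), CPT1A (0.52) and SLC2A1 (-4.91). Term fetus 5 stood low for ICAM1 (-5.38) and NPY (-2.50), and term fetus 3 high for HSD11B2 (-0.13). Among lambs, lamb 1 stood low for SLC25A6 (3.44), K38 (-3.10), CALCA (-4.73), AQP8 (-3.25) and LHB (1.55), which are all genes with a called fall across birth. Lamb 8 stood low for IRF1 (-3.77), ENO3 (3.40) and ADRB1 (-3.44), lamb 7 for LYZ (-4.54) and CD86 (-3.99), lamb 4 for IGF1 (-4.20) and ALDH1A1 (2.85), and lamb 3 high for TNF (-3.62).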

How the results depend on the processing

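The count of called differences (3375 probes) was within 1.5 times under every alternative but 3, namely 1288 with normexp, 1267 with scan date as a random block and 5106 with array weights. Of the 62 called genes followed through the settings, 45, 39 and 62 kept the call in these, and 0 changed sign in any alternative. Of the 3375 probes, 1279 kept the call and the sign with normexp and 36 had the other sign. With normexp the median change of all probes was 0.13 before term and 0.23 across birth, against -0.0097 and -0.018 in the main fit. Changes under normexp are therefore read relative to its medians. With normexp the change before term was called for 468 probes, across birth for 3331, fell-then-rose for 91, rose-then-fell for 56, only across birth for 988 and only before term for 105. With scan date as a random block (consensus correlation 0.411) the change across birth was called for 1037, fell-then-rose for 36, rose-then-fell for 93 and only across birth for 670. With slide as a random block 477 stopped at birth, and with slide as a fixed block within fetal and lamb arrays 373 rose and then fell. With array weights the change before term was called for 3354, fell-then-rose for 684, rose-then-fell for 443 and stopped for 827. With a size of at least 1 required, the change before term was called for 328, across birth for 1909 and stopped for 161. With the lambs of slide 5, 6 or 7 alone, the change before term was called for 1998, 2591 and 2178 and rose-then-fell for 320, 678 and 312, and stopped for 483 and 579 with slides 5 and 6. With 130-day fetuses 2 and 3 both left out, chosen after seeing the data, 97 probes rose and then fell. A replicate block called the change before term for 787 probes and the difference for 3032, where 1 of the 62 genes, MYH7, lost its call; same-numbered samples share only a number. Leaving out each array in turn gave 665 to 1475 calls before term, 172 to 394 for fell-then-rose, 82 to 219 for rose-then-fell and 175 to 415 for stopped. Single changes turned sign for IL1A before term with normexp (0.13), MYOD1 across birth with normexp (0.17), and across birth with the lambs of slide 7 alone for MYH7 (0.030), IL10 (-0.82) and NR3C1 (0.79). The cause was not tested for any of these. Dim genes are read least surely, since 18 of 134 named genes called lower only across birth were above background on fewer than 0.5 of the lambs.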

Other observations

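Of 5 neutrophil markers, which encode cathelicidins and other granule proteins of these cells, all 5 were lower in lambs than at term by the calls, with a median change of -3.67 across birth and -2.03 before term, where 0 of 5 were called. Over all named genes, 28.6% were called lower across birth. CATHL1B, a cathelicidin, fell by 4.39 across birth and was well above background on 4 of 8 lambs. LTF, lactoferrin, was well above background on 5, 4 and 0 arrays of the 3 groups, so that its fall across birth was at least 1.03-fold. AHSP, which stabilises alpha haemoglobin in red cell precursors, was well above background on 6 of 6, 5 of 8 and 0 of 8 arrays. It fell by 2.93 before term and was at least 1.23-fold lower in lambs than at term, taking the lowest measurable signal of each lamb array as a bound.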
